A study of Homo sapiens with 16 samples.

Results

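The comparison described here is that of the response to SH2D1A knockdown between 2 lines of human T-ALL, an acute leukaemia of immature T cells, at the same day, and it uses the 8 libraries taken at day 10 out of the 16 of the series. The groups are Jurkat day 10 with sh-SH2D1A, Jurkat day 10 with sh-NC, 6T-CEM day 10 with sh-SH2D1A and 6T-CEM day 10 with sh-NC, with 2 libraries in each. Jurkat is an established T-ALL line, and 6T-CEM is given in the labels as a line of T-ALL cells. sh-SH2D1A is a short hairpin RNA against SH2D1A and sh-NC is the control hairpin, and all groups therefore carry a hairpin. What the days are counted from, how many hairpin sequences were used and whether the 2 libraries of a group came from separate cultures are points on which the labels are silent, so a p-value here reflects the spread of these libraries alone.

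SH2D1A encodes SAP, a small adaptor whose SH2 domain docks on SLAM family receptors of T and NK cells and brings the kinase FYN to them. SLAM receptors bind one another between cells, and SAP is known for its part in T cell help, NKT cell development and cytotoxic function. Major histocompatibility complex (HLA) class I, several genes of which moved in opposite directions, presents peptides to CD8 T cells on a heavy chain held by beta-2-microglobulin, and NLRC5 is the transactivator that switches its genes on.

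The counts of the 8 libraries ranged from 28836423 to 31876720, which makes 3 counts worth 0.0941 to 0.104 CPM, the count scaled to library size. Every library pair of a group differed by more than sampling noise (chi-square per degree of freedom 4.96 to 9.60), so each library counted as 1 sample. Mitochondrially encoded genes took 4.15 to 4.47% of the counts in Jurkat and 6.13 to 6.55% in 6T-CEM. All 16 T-ALL markers, among them CD3D, CD7, CD1A and PTCRA, passed 1 CPM, and their summed level was 3275 to 3585 CPM in Jurkat sh-SH2D1A, 3631 to 3821 CPM in Jurkat sh-NC, 1603 to 1683 CPM in 6T-CEM sh-SH2D1A and 1824 to 1853 CPM in 6T-CEM sh-NC. Of markers of other cell types, 7 of 10 B cell, 8 of 12 myeloid, 5 of 9 epithelial and 6 of 10 erythroid genes stayed under 1 CPM in all 8 libraries, with EPCAM, KRT19 and HBB among those at 0. The B cell markers over 1 CPM were CD79A, CD79B and EBF1, and the summed B cell markers were at 59.1 to 67.5 CPM in Jurkat sh-SH2D1A, 63.9 to 76.0 CPM in Jurkat sh-NC, 33.0 to 37.1 CPM in 6T-CEM sh-SH2D1A and 51.1 to 52.7 CPM in 6T-CEM sh-NC. In the other 3 lists, the markers over 1 CPM in at least 1 library were ITGAM, CD68, CEBPA and CST3 for myeloid cells. They were KRT8, PAX2, ESRP1 and CLDN4 for epithelial cells, and HBA1, HBA2, EPOR and KLF1 for erythroid cells. The sums of these 3 lists stayed between 14.6 and 50.6 CPM. The part of these markers in the results was not tested. In bulk libraries, fewer cells of a kind and less RNA per cell cannot be told apart.

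The hairpin's target was measured at 60.7 and 66.1 CPM in Jurkat sh-SH2D1A, against 178 and 206 CPM in Jurkat sh-NC. It was measured at 81.6 and 75.3 CPM in 6T-CEM sh-SH2D1A, against 158 and 156 CPM in 6T-CEM sh-NC. The log2 change was -1.60 ± 0.08 in Jurkat and -1.001 ± 0.08 in 6T-CEM (SE), so the knockdown was deeper in Jurkat, with an interaction, which is the Jurkat log2 change minus the 6T-CEM log2 change, of -0.60 ± 0.11 (adjusted p = 0.0276) by edgeR's quasi-likelihood test with Benjamini-Hochberg adjustment over 20770 genes. All tests below are this test, a call is an adjusted p under 0.05, and values after ± are SE of a log2 change. The interaction of SH2D1A left the threshold without 6T-CEM sh-NC replicate 1 (adjusted p = 0.122), 6T-CEM sh-NC replicate 2 (0.123), 6T-CEM sh-SH2D1A replicate 1 (0.132), 6T-CEM sh-SH2D1A replicate 2 (0.0638) or Jurkat sh-SH2D1A replicate 1 (0.0753). SH2D1A lies on chromosome X, 124227868 to 124373197, plus strand (hg38, GENCODE 29), and its span overlaps STAG2 on the same strand. CHI3L2, a secreted chitinase-like protein without enzyme activity, fell in both lines, by 1.35 and 0.94 on the log2 scale in Jurkat and 6T-CEM. Its CPM were 733 and 727 CPM in Jurkat sh-SH2D1A, against 1837 and 1878 CPM in Jurkat sh-NC, and 108 and 109 CPM in 6T-CEM sh-SH2D1A, against 210.0 and 206 CPM in 6T-CEM sh-NC. Its interaction was -0.41 ± 0.06 (adjusted p = 0.011), and it left the threshold without any 1 of the 4 6T-CEM libraries (adjusted p = 0.067 to 0.0842). With the 6T-CEM changes multiplied by 1.59, the ratio of the SH2D1A changes, the CHI3L2 difference turned to 0.148 (adjusted p = 0.448).

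Across the transcriptome the 2 lines shared part of their response. Of 20770 genes tested, 574 rose (2.76%) and 842 fell (4.05%) in Jurkat, and 544 rose (2.62%) and 878 fell (4.23%) in 6T-CEM. Both lines called 525 genes, which is 37.1% of the Jurkat calls and 36.9% of the 6T-CEM calls, and 483 of the 525 (92.0%) moved the same way. Across the 15078 genes with a mean of at least 1 CPM in each line, the 2 log2 changes had a Pearson r of 0.262 (genes are not independent replicates), and their SDs were 0.35 in Jurkat and 0.363 in 6T-CEM. The change itself differed between the lines for 358 genes (1.72%), with 202 positive interactions (0.973%) and 156 negative ones (0.751%), and 116 of the 358 differed at least 2-fold. The median interaction over all tested genes was 0.016 on the log2 scale.

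The 358 genes fall into classes by what each line did. In 42 genes (0.202% of those tested) both lines changed and in opposite directions, 20 higher in Jurkat and lower in 6T-CEM and 22 the other way. In 35 genes both lines changed the same way by unequal amounts. Another 119 passed in Jurkat and not in 6T-CEM, 63 higher and 56 lower, and 158 passed in 6T-CEM and not in Jurkat, 72 higher and 86 lower. The remaining 4 passed in neither line. The number of interaction calls was 106 without 6T-CEM sh-NC replicate 1, 112 without 6T-CEM sh-NC replicate 2, 119 without 6T-CEM sh-SH2D1A replicate 1, 146 without 6T-CEM sh-SH2D1A replicate 2, 258 without Jurkat sh-NC replicate 1, 549 without Jurkat sh-NC replicate 2, 268 without Jurkat sh-SH2D1A replicate 1 and 270 without Jurkat sh-SH2D1A replicate 2. In each of these fits some of the 42 opposite genes lost a call, while all 42 kept opposite signs. The fits reuse the libraries that chose the 42, so their signs could hardly change and nothing is read from that.

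**Figure D1:**
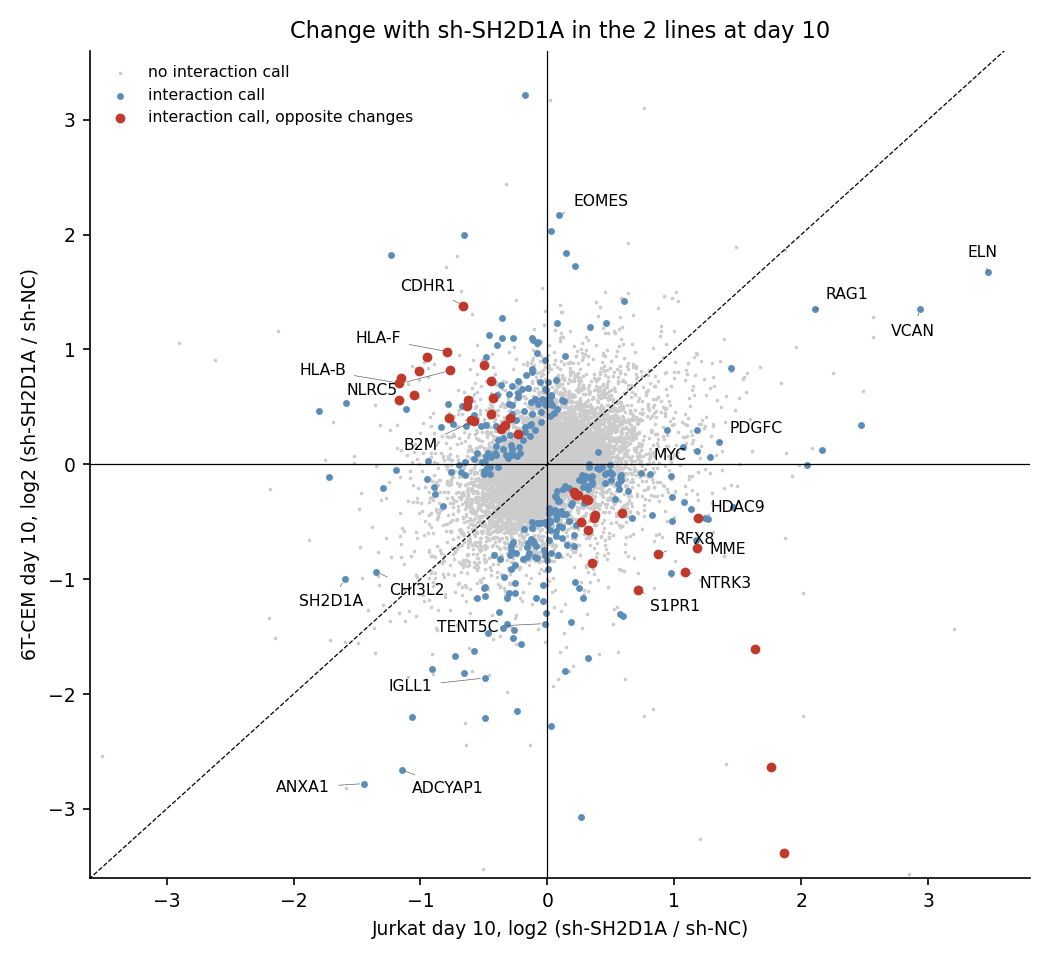
Each point is a gene with a mean of at least 1 CPM in each line, with its log2 change in Jurkat at day 10 on the x axis and in 6T-CEM at day 10 on the y axis; 11 such genes lie outside the axes. Blue points have an interaction call, red points are the genes that changed in opposite directions, and the dashed line marks equal changes. HLA-B, HLA-F, NLRC5 and B2M stand at the upper left, and S1PR1, MME, NTRK3, RFX8 and HDAC9 at the lower right.

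The HLA class I presentation genes below were lower with sh-SH2D1A in Jurkat and higher with sh-SH2D1A in 6T-CEM. Among the opposite genes that fell in Jurkat were the heavy chains HLA-B, HLA-C and HLA-F, the light chain B2M, and NLRC5. The stretch before the start of each of 4 of them is shown because these genes moved together. The 250 bases upstream of the transcript start (RefSeq, GRCh38.p14, written 5′ to 3′ on the gene's strand) are chr6:31357180-31357429 (minus strand) for HLA-B, chr6:31272093-31272342 (minus strand) for HLA-C, chr6:29723184-29723433 (plus strand) for HLA-F and chr15:44711267-44711516 (plus strand) for B2M. Capitals mark matches, on either strand, to CCAAT, to TGACG, which is the core of the CRE-like X2 box, and to the interferon-stimulated response element (ISRE) in its form of 10 bases.
HLA-B: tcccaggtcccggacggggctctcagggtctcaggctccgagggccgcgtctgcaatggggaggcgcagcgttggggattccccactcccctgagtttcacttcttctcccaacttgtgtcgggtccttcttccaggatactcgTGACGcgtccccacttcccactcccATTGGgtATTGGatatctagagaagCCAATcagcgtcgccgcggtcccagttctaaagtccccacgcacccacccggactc
HLA-C: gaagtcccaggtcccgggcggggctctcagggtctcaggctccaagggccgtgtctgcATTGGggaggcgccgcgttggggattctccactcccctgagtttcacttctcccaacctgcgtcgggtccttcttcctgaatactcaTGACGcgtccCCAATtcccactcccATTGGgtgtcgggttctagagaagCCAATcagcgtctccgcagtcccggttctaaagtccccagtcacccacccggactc
HLA-F: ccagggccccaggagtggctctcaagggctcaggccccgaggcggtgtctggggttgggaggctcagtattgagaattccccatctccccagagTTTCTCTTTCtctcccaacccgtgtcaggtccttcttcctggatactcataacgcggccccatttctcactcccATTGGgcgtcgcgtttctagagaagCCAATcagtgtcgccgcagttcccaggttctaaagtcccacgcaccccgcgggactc
B2M: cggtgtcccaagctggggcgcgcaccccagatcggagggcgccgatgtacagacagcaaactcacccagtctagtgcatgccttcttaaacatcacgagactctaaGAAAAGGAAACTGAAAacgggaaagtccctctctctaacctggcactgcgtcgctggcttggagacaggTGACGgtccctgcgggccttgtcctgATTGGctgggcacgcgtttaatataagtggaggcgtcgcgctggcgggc
HLA-B held 3 matches to CCAAT and 1 to TGACG, HLA-C held 4 and 1, HLA-F held 2 to CCAAT and 1 to the ISRE form, and B2M held 1 to CCAAT, 1 to TGACG and 2 to the ISRE form that overlap each other. Over 35116 promoters of the same length, 32.0% held CCAAT, 21.2% TGACG and 3.02% the ISRE form. A match is a run of letters and not a bound site.

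HLA-B was measured at 85.1 and 80.0 CPM in Jurkat sh-SH2D1A, against 200.4 and 170.5 CPM in Jurkat sh-NC. HLA-B was measured at 129 and 128 CPM in 6T-CEM sh-SH2D1A, against 79.3 and 78.4 CPM in 6T-CEM sh-NC. In Jurkat both sh-SH2D1A libraries were under both sh-NC libraries, and in 6T-CEM both were above them. A call in each line selects for such separation, so nothing is read from it for the opposite genes. The log2 change was -1.17 ± 0.08 (adjusted p = 3.76e-05) in Jurkat and 0.71 ± 0.08 (adjusted p = 0.000361) in 6T-CEM, and the interaction was -1.87 ± 0.11 (adjusted p = 5.94e-05). HLA-C had 138 and 123 CPM in Jurkat sh-SH2D1A, against 188 and 162 CPM in Jurkat sh-NC. HLA-C had 177 and 165 CPM in 6T-CEM sh-SH2D1A, against 111 and 118 CPM in 6T-CEM sh-NC, with an interaction of -1.001 ± 0.12 (adjusted p = 0.0025). HLA-F, a heavy chain of low level here, had 5.54 and 5.45 CPM in Jurkat sh-SH2D1A, against 9.49 and 9.51 CPM in Jurkat sh-NC. HLA-F had 9.10 and 10.9 CPM in 6T-CEM sh-SH2D1A, against 5.39 and 4.73 CPM in 6T-CEM sh-NC, with an interaction of -1.77 ± 0.24 (adjusted p = 0.00502).

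B2M, the light chain of class I, had 302 and 283 CPM in Jurkat sh-SH2D1A, against 425 and 448 CPM in Jurkat sh-NC. B2M had 276 and 268 CPM in 6T-CEM sh-SH2D1A, against 216 and 203 CPM in 6T-CEM sh-NC. Its changes were -0.58 ± 0.06 in Jurkat and 0.38 ± 0.06 in 6T-CEM, and the interaction was -0.95 ± 0.08 (adjusted p = 0.000286). NLRC5 had 39.7 and 41.9 CPM in Jurkat sh-SH2D1A, against 74.7 and 63.9 CPM in Jurkat sh-NC. NLRC5 had 62.2 and 62.0 CPM in 6T-CEM sh-SH2D1A, against 34.7 and 35.8 CPM in 6T-CEM sh-NC, changes of -0.76 ± 0.08 in Jurkat and 0.82 ± 0.08 in 6T-CEM and an interaction of -1.58 ± 0.12 (adjusted p = 0.00018). The sh-SH2D1A libraries of the lines thus stood closer to each other than the sh-NC libraries did for B2M, and the order of the lines was the reverse for NLRC5, where 6T-CEM was higher among sh-SH2D1A libraries and lower among sh-NC libraries. The interactions of HLA-B, HLA-C, B2M and NLRC5 kept their call under all 16 alternatives, and that of HLA-F under 15, missing the fit of all 16 libraries. HLA-B lies on chromosome 6, 31269491 to 31357188, minus strand, and its annotated span overlaps HLA-C on the same strand. NLRC5 lies on chromosome 16, 56989485 to 57083531, plus strand, and B2M on chromosome 15, 44711487 to 44718877, plus strand.

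**Figure D2:**
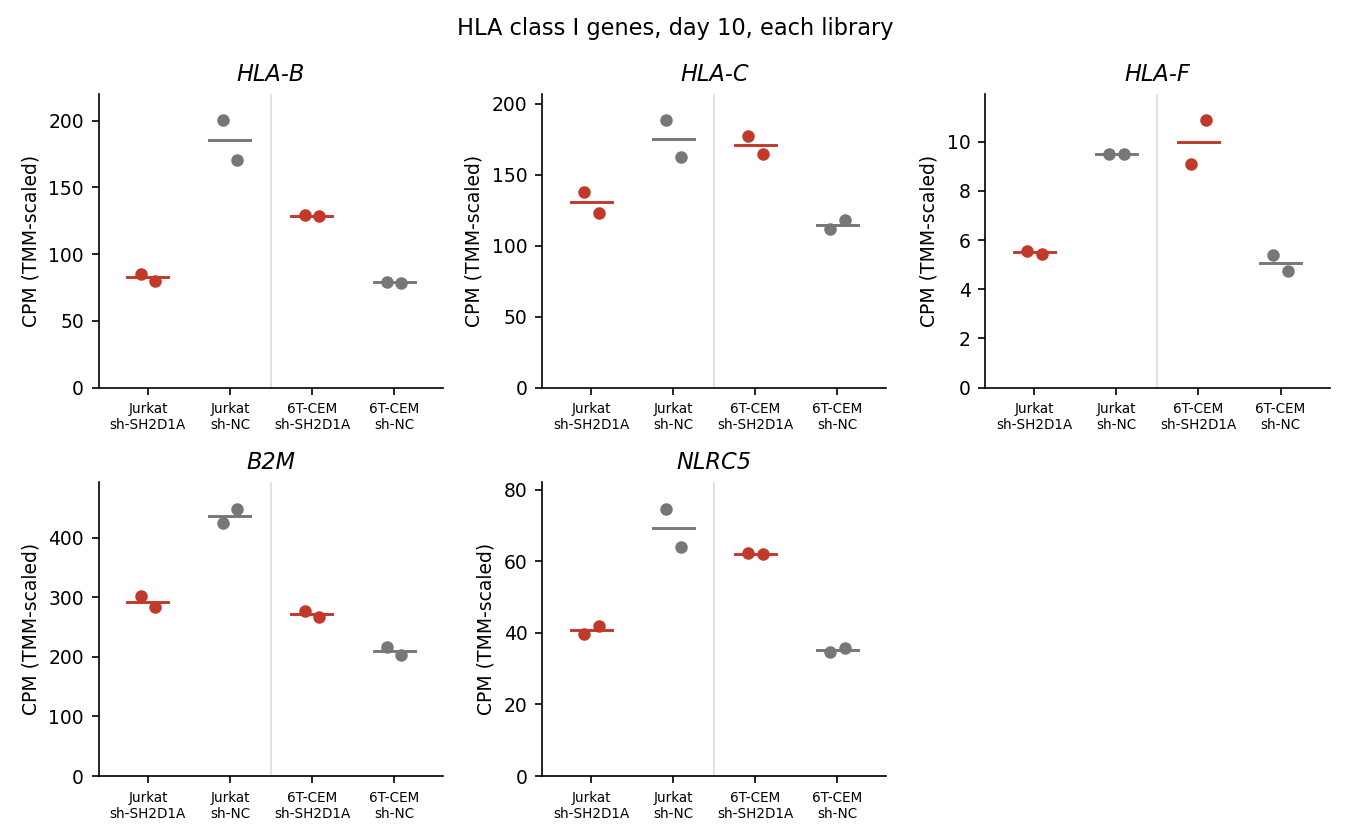
TMM-scaled CPM of 5 class I presentation genes in each day 10 library, with points for libraries and bars for the mean of the 2 libraries of a group. In each panel the sh-SH2D1A libraries lie under sh-NC in Jurkat and above sh-NC in 6T-CEM, for example HLA-B with means of 82.5 and 185.5 CPM in Jurkat and 128.8 and 78.9 CPM in 6T-CEM, for sh-SH2D1A and sh-NC in each line.

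The heavy chains are close copies of one another, and how reads that match several of them were counted is not given, so the split of counts between HLA-B, HLA-C and HLA-F is uncertain. Another 8 identifiers with no symbol and no position in GENCODE 29 fell in Jurkat and rose in 6T-CEM. Their changes were -1.17 to -0.60 in Jurkat and 0.39 to 0.93 in 6T-CEM, and they are given no gene name here. Whether they are loci apart from the genes with a symbol is not known. They count among the 42 opposite genes and the 22 of these that fell in Jurkat. These counts, and shares over the 42, may therefore hold a locus more than once.

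The wider list of HLA and antigen presentation genes had 25 tested members, and 9 fell and none rose in Jurkat, while 7 rose and 2 fell in 6T-CEM. The median change was -0.33 in Jurkat and 0.20 in 6T-CEM, against 0.005 and -0.005 over all tested genes. The interaction was called for 8 members (32.0%, against 1.72% of all genes), 7 negative and 1 positive, and the 2 changes had opposite signs in 15 of the 25 members, against 39.6% of all genes. HLA-E, the ligand of NKG2A, was called negative too, with -0.74 in Jurkat (adjusted p = 0.0052), 0.35 in 6T-CEM (adjusted p = 0.132) and an interaction of -1.10 (adjusted p = 0.0122), and it was picked out after its values were seen, without runs of the alternatives for it. CALR, an endoplasmic reticulum chaperone of class I folding, was the positive one, at 0.01 in Jurkat and -0.48 in 6T-CEM, and its interaction of 0.50 ± 0.08 (adjusted p = 0.0112) left the threshold without any 1 of the 4 6T-CEM libraries (adjusted p = 0.0585 to 0.069). The peptide transporter genes TAP1 and TAP2, the immunoproteasome gene PSMB8 and the class II genes tested had no interaction call: TAP1 was at 0.57 in Jurkat and 0.80 in 6T-CEM (interaction adjusted p = 0.806), and TAP2 at -0.30 and 0.38 (0.291). CIITA, the class II transactivator, was at -0.12 in Jurkat and 0.999 in 6T-CEM, with an interaction of -1.12 (adjusted p = 0.372). RFX5, a subunit of the factor that both transactivators work with, was at 0.09 and 0.02.

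CD28 and LY9, each the 1 opposite member of its list, also fell in Jurkat and rose in 6T-CEM. CD28, the main costimulatory receptor, had 144 and 151 CPM in Jurkat sh-SH2D1A, against 192 and 209 CPM in Jurkat sh-NC. CD28 had 21.2 and 24.0 CPM in 6T-CEM sh-SH2D1A, against 12.8 and 14.5 CPM in 6T-CEM sh-NC, with an interaction of -1.17 ± 0.12 (adjusted p = 0.00114). LY9, a SLAM family receptor to which SAP binds, had 18.0 and 20.2 CPM in Jurkat sh-SH2D1A, against 27.0 and 27.1 CPM in Jurkat sh-NC. LY9 had 8.54 and 8.05 CPM in 6T-CEM sh-SH2D1A, against 4.06 and 5.05 CPM in 6T-CEM sh-NC, with an interaction of -1.36 ± 0.19 (adjusted p = 0.00772). The interaction calls of CD28 and LY9 held under all 16 alternatives. That count covers the interaction and not the change within each line. The Jurkat fall of LY9 was near the threshold (-0.50 ± 0.13, adjusted p = 0.0459). CDHR1, a cadherin-related protein known from photoreceptors, had the largest difference of this direction among genes with a symbol: it had 34.5 and 34.2 CPM in Jurkat sh-SH2D1A, against 52.4 and 56.4 CPM in Jurkat sh-NC. CDHR1 had 33.0 and 33.4 CPM in 6T-CEM sh-SH2D1A, against 12.9 and 12.6 CPM in 6T-CEM sh-NC, with an interaction of -2.05 ± 0.11 (adjusted p = 5.94e-05). UCP2, a mitochondrial carrier, changed by -0.37 in Jurkat and 0.31 in 6T-CEM, and RIMS3, known from synaptic vesicle release, by -0.30 in Jurkat and 0.40 in 6T-CEM. CHRNA3, a nicotinic receptor subunit, changed by -0.44 in Jurkat and 0.44 in 6T-CEM, and its interaction of -0.88 ± 0.14 (adjusted p = 0.0116) left the threshold without 6T-CEM sh-NC replicate 1 (adjusted p = 0.0679) or 6T-CEM sh-SH2D1A replicate 2 (0.0579). LIMD2 and ASF1B had the same pattern, at interactions of -0.67 and -0.49. The call of ASF1B was lost without any 1 of the 4 6T-CEM libraries (adjusted p = 0.0579 to 0.0959), and that of LIMD2 without 6T-CEM sh-NC replicate 1 (0.051). Both were lost in the fit of all 16 libraries, at 0.0735 for ASF1B and 0.16 for LIMD2.

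In the other direction, 17 genes with a symbol that are no read-through genes were higher with sh-SH2D1A in Jurkat and lower with it in 6T-CEM. S1PR1, the receptor by which T cells leave lymphoid tissue, had 25.9 and 27.1 CPM in Jurkat sh-SH2D1A, against 18.5 and 13.9 CPM in Jurkat sh-NC. S1PR1 had 5.66 and 6.86 CPM in 6T-CEM sh-SH2D1A, against 12.9 and 13.9 CPM in 6T-CEM sh-NC, with an interaction of 1.81 ± 0.22 (adjusted p = 0.00326). In 6T-CEM sh-SH2D1A it stood lowest of the 4 groups. MME, the CD10 surface peptidase of lymphoid precursors, had 4.43 and 4.996 CPM in Jurkat sh-SH2D1A, against 1.83 and 2.33 CPM in Jurkat sh-NC. MME had 7.91 and 6.92 CPM in 6T-CEM sh-SH2D1A, against 12.7 and 11.8 CPM in 6T-CEM sh-NC, with an interaction of 1.90 ± 0.27 (adjusted p = 0.00677). The rise in Jurkat left MME under the level of either 6T-CEM group. HDAC9, a class IIa histone deacetylase, had 9.81 and 11.1 CPM in Jurkat sh-SH2D1A, against 4.48 and 4.70 CPM in Jurkat sh-NC. HDAC9 had 41.3 and 39.1 CPM in 6T-CEM sh-SH2D1A, against 55.2 and 56.0 CPM in 6T-CEM sh-NC, with an interaction of 1.66 ± 0.14 (adjusted p = 0.000291). In RFX8, a member of the RFX family of DNA-binding proteins, all 4 groups stood apart: it had 89.8 and 96.8 CPM in Jurkat sh-SH2D1A, against 49.9 and 52.0 CPM in Jurkat sh-NC. RFX8 had 19.2 and 16.5 CPM in 6T-CEM sh-SH2D1A, against 32.4 and 29.1 CPM in 6T-CEM sh-NC, with an interaction of 1.66 ± 0.13 (adjusted p = 0.000197).

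FYB1 encodes ADAP, an adaptor of T cell receptor to integrin signalling whose SH2-binding motifs are known to take up FYN and SLP-76. It had 564 and 575 CPM in Jurkat sh-SH2D1A, against 457 and 489.8 CPM in Jurkat sh-NC. FYB1 had 102 and 105 CPM in 6T-CEM sh-SH2D1A, against 148 and 146 CPM in 6T-CEM sh-NC, with a smaller but called interaction of 0.77 ± 0.07 (adjusted p = 0.00064). NTRK3, a neurotrophin receptor kinase, had 7.09 and 7.88 CPM in Jurkat sh-SH2D1A, against 3.95 and 3.08 CPM in Jurkat sh-NC. NTRK3 had 7.48 and 7.08 CPM in 6T-CEM sh-SH2D1A, against 13.2 and 14.6 CPM in 6T-CEM sh-NC, with an interaction of 2.02 ± 0.24 (adjusted p = 0.00304). The sh-SH2D1A libraries of the lines met at about the same level while the sh-NC libraries stood apart, and the call was lost in the fit of all 16 libraries (adjusted p = 0.0975), as was that of SHANK1 (0.0723). The protein phosphatase genes PPM1H (0.32 in Jurkat and -0.57 in 6T-CEM) and PPM1E (0.37 in Jurkat and -0.44 in 6T-CEM), the centrosomal gene CEP70 (0.37 in Jurkat and -0.47 in 6T-CEM), the scaffold gene SHANK1 (0.59 in Jurkat and -0.42 in 6T-CEM) and the noncoding LINC02910 (0.35 in Jurkat and -0.86 in 6T-CEM) had log2 changes of the same pattern. CDH4, a cadherin, was at 0.32 in Jurkat and -0.31 in 6T-CEM, and its interaction of 0.63 ± 0.09 (adjusted p = 0.00789) left the threshold without 6T-CEM sh-NC replicate 1 (adjusted p = 0.0534), 6T-CEM sh-NC replicate 2 (0.0502) or 6T-CEM sh-SH2D1A replicate 1 (0.0567). KHDRBS3, ABCB10, VANGL1 and GTF3A had interactions of 0.45 to 0.61, and each left the threshold without any 1 of the 4 6T-CEM libraries (adjusted p = 0.0569 to 0.118 over these fits). The largest opposite values belong to transcripts that share their locus with another gene: the read-through SENP3-EIF4A1 (1.86 in Jurkat and -3.39 in 6T-CEM), and 2 identifiers without a symbol, ENSG00000259522 (1.63 in Jurkat and -1.61 in 6T-CEM), which overlaps IPO4 and TM9SF1 on the same strand, and ENSG00000273333 (1.76 and -2.64), which overlaps PBX2. IPO4 itself was at -1.11 in Jurkat and 0.48 in 6T-CEM, the other way from ENSG00000259522, and how the counts were divided between overlapping genes is not given. The interactions of SENP3-EIF4A1, ENSG00000259522 and ENSG00000273333 left the threshold in the fit of all 16 libraries (adjusted p = 0.0977, 0.407 and 0.131), as did those of ABCB10 (0.0685), GTF3A (0.0767) and CDH4 (0.105). SENP3-EIF4A1 and the 2 identifiers were picked out after their values were seen and are the only opposite genes with at least a 2-fold change in each line.

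**Figure D3:**
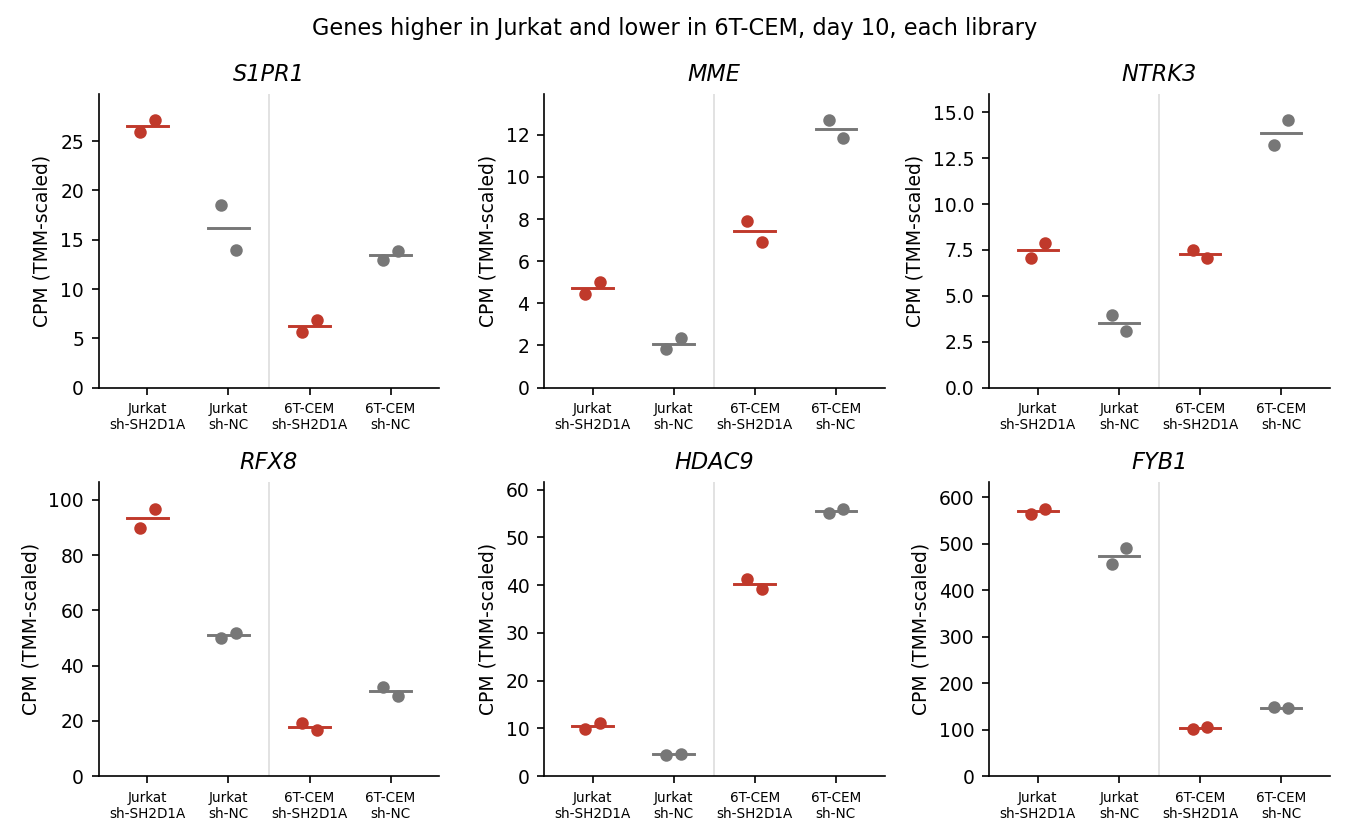
TMM-scaled CPM of 6 genes that were higher with sh-SH2D1A in Jurkat and lower with it in 6T-CEM at day 10, with points for libraries and bars for the mean of the 2 libraries of a group. S1PR1 had means of 26.5 and 16.2 CPM in Jurkat and 6.26 and 13.4 CPM in 6T-CEM, for sh-SH2D1A and sh-NC in each line.

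The libraries of the earlier days, Jurkat day 8 and 6T-CEM day 5, were not used for these calls and give the same genes in other libraries, although there the line and the day cannot be told apart. Of the 42 opposite genes, 36 (85.7%) had the same sign of the line difference, against 51.9% of 20056 genes tested in both fits. The Jurkat change kept its sign in 36 of 42 (85.7%, against 65.6% of all genes), and the 6T-CEM change in 15 of 42 (35.7%, against 62.9%). The same opposite directions were seen again in 12 of the 42, while over all genes both changes kept their sign in 8584 of 20056. These are counts of signs and not of calls. Over all 358 interaction calls the line difference kept its sign in 273 (76.3%). In the earlier libraries themselves the interaction was called for TENT5C alone of 20945 genes by edgeR (1.20, adjusted p = 0.0246), with 2231 at an unadjusted p under 0.05, and the 6T-CEM day 5 sh-SH2D1A pair differed more than any other pair (chi-square per degree of freedom 25.1, against 4.96 to 10.4 in the other 7 groups).

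In HLA class I the Jurkat changes had the same sign at day 10 and day 8. The 6T-CEM changes of HLA-B, HLA-C, HLA-F, B2M and NLRC5 were positive at day 10 and negative at day 5, where HLA-B alone of these was called. Some of these signs rest on changes smaller than their SE. They were B2M (-0.05 ± 0.09, adjusted p = 0.809) and HLA-F (-0.32 ± 0.37, 0.657) in 6T-CEM at day 5, and HLA-F in Jurkat at day 8 (-0.05 ± 0.35, 0.973). No direction is read from those. At day 8 HLA-B had 61.0 and 57.5 CPM in Jurkat sh-SH2D1A and 114 and 121 CPM in Jurkat sh-NC, a change of -0.98 ± 0.14 (adjusted p = 0.0116). At day 5 HLA-B had 58.5 and 41.9 CPM in 6T-CEM sh-SH2D1A and 87.4 and 77.8 CPM in 6T-CEM sh-NC, a change of -0.72 ± 0.14 (adjusted p = 0.0178), which is a fall in place of the rise at day 10. Day 10 minus day 5 within 6T-CEM, in a fit of all 16 libraries chosen after the data were seen, was 1.42 ± 0.17 (adjusted p = 0.00399), and HLA-C and NLRC5 were called too, at 0.88 ± 0.16 (0.0256) and 1.15 ± 0.22 (0.0326). B2M (0.42 ± 0.11, adjusted p = 0.092) and HLA-F (1.30 ± 0.41, 0.182) were not. That difference was called for 13 of the 42 opposite genes, against 0.681% of 22032 genes; it shares the day 10 libraries with the calls that chose the 42, so nothing is read from the share. Within Jurkat, day 10 minus day 8 was called for none of the 42 by edgeR and for 1 gene over all.

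The knockdown of SH2D1A in 6T-CEM also differed between the days. At day 5 SH2D1A had 55.1 and 61.9 CPM in 6T-CEM sh-SH2D1A and 188 and 199.5 CPM in 6T-CEM sh-NC, a change of -1.73 ± 0.10, against -1.001 ± 0.08 at day 10, and day 10 minus day 5 was 0.72 ± 0.13 (adjusted p = 0.0181). In Jurkat it was -1.60 ± 0.08 at day 10 and -1.72 ± 0.10 at day 8. The part of the shallower knockdown in the opposite changes of 6T-CEM was not tested. Multiplying the 6T-CEM changes by 1.59 leaves the sign of each 6T-CEM change as it is, and 459 genes were called with it, 300 of them among the 358. CD28 kept opposite directions on the earlier days, at -0.55 in Jurkat (adjusted p = 0.0256) and 0.53 in 6T-CEM (adjusted p = 0.018). RFX8 had 0.44 (adjusted p = 0.052) and -0.36 (0.0552). HDAC9 had 1.11 (0.00794) and 0.27 (0.221), S1PR1 had 0.42 (0.181) and -0.08 (0.789), and CDHR1 fell in both lines there, at -0.84 (0.00409) and -1.04 (0.000479). FYB1 had negative values in both lines there, at -0.26 (0.17) and -0.49 (0.0101), where its Jurkat change at day 10 was a rise.

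**Figure D4:**
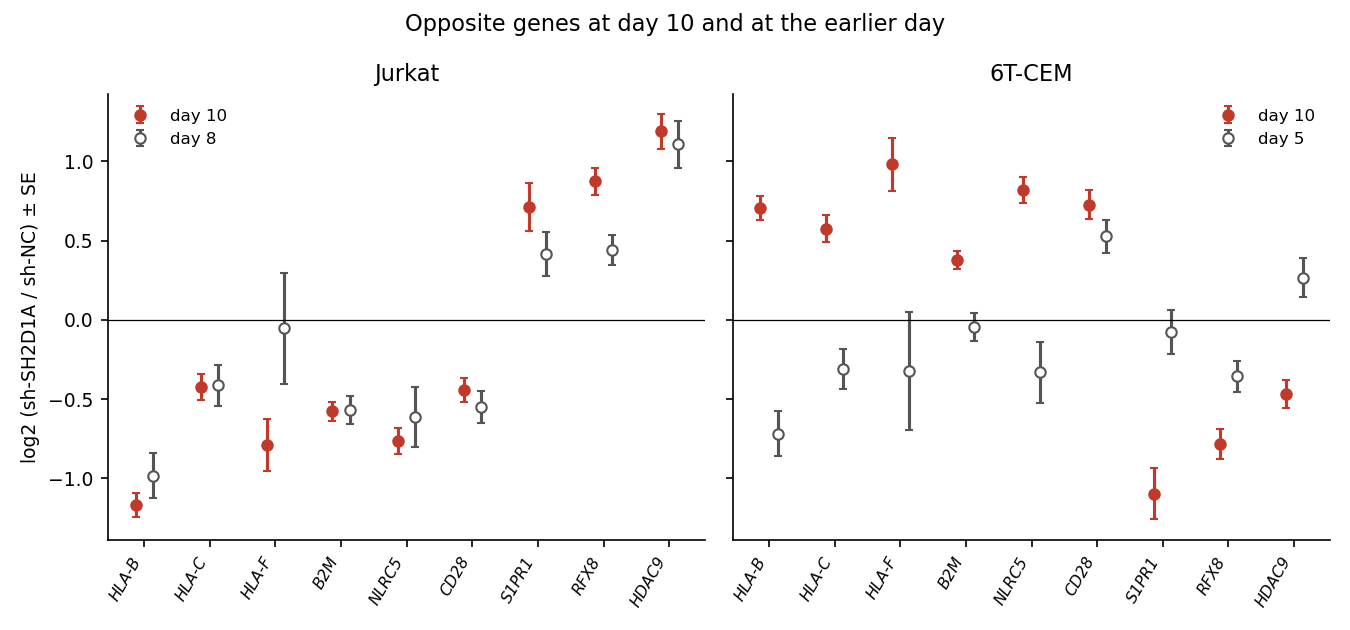
Log2 change with sh-SH2D1A, with bars of ± SE, for 9 opposite genes at day 10 (filled) and at the earlier day (open), in Jurkat on the left and 6T-CEM on the right. B2M stood at -0.58 at day 10 and at -0.57 at day 8 in Jurkat, while in 6T-CEM HLA-B stood at 0.71 at day 10 and at -0.72 at day 5.

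Homing and adhesion receptors with a line difference were mainly those that fell in 6T-CEM, as all 9 members with a positive interaction did. Of 28 tested members, 7 fell and 1 rose in Jurkat, and 15 fell and none rose in 6T-CEM. The medians were -0.27 and -0.36, and with the 1 member that has a group at 0 set to its bound the Jurkat median was -0.29. The interaction was called for 10 members (35.7%), 9 positive and 1 negative, so among the lists of more than 4 genes it had the largest share called. For this list and those below, the shares over all tested genes were 2.76% higher and 4.05% lower in Jurkat. They were 2.62% higher and 4.23% lower in 6T-CEM. The interaction was called for 1.72% of all genes and 2.29% of those with at least 1 CPM in each line. ITGA4, the alpha chain of VLA-4, had 869 and 965 CPM in Jurkat sh-SH2D1A, against 946 and 1010.0 CPM in Jurkat sh-NC, with overlap between the groups. ITGA4 had 134 and 135 CPM in 6T-CEM sh-SH2D1A, against 302 and 303 CPM in 6T-CEM sh-NC, with an interaction of 1.07 ± 0.08 (adjusted p = 0.000197). ITGA6, a laminin receptor chain, was at 0.25 in Jurkat and -1.07 in 6T-CEM, and its call, with that of ITGA4, held under all 16 alternatives. KLF2, a transcription factor known to drive S1PR1 in T cells, had 10.47 and 11.8 CPM in Jurkat sh-SH2D1A, against 12.1 and 10.3 CPM in Jurkat sh-NC. KLF2 had 11.9 and 14.8 CPM in 6T-CEM sh-SH2D1A, against 30.8 and 34.9 CPM in 6T-CEM sh-NC, and its interaction of 1.29 ± 0.21 (adjusted p = 0.0134) left the threshold without 6T-CEM sh-NC replicate 2 (adjusted p = 0.0698) or 6T-CEM sh-SH2D1A replicate 1 (0.0627). S1PR1 was the 1 opposite member, and ITGAL, the alpha chain of LFA-1, the 1 negative one, at -0.82 in Jurkat and -0.36 in 6T-CEM, with an interaction of -0.46 ± 0.08 (adjusted p = 0.016) that left the threshold without any 1 of the 4 6T-CEM libraries (adjusted p = 0.0698 to 0.122). With the 6T-CEM changes multiplied by 1.59, the difference of ITGAL was -0.25 (adjusted p = 0.294).

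Among cytotoxic and effector genes, the T-box factor EOMES rose in 6T-CEM and was not called in Jurkat. EOMES had 3.51 and 4.30 CPM in Jurkat sh-SH2D1A, against 3.32 and 4.02 CPM in Jurkat sh-NC, with overlap. EOMES had 285 and 284 CPM in 6T-CEM sh-SH2D1A, against 61.7 and 64.5 CPM in 6T-CEM sh-NC, with an interaction of -2.08 ± 0.16 (adjusted p = 0.000181) that held under all 16 alternatives, and at the earlier days it was at 0.79 and 1.90. Of 21 tested members 5 rose and 1 fell in 6T-CEM, and 1 rose and 1 fell in Jurkat, where GZMH, counted as higher, had 0.361 and 0.139 CPM with sh-SH2D1A and 0 counts in both sh-NC libraries. The interaction was called for 2 members (9.52%), EOMES and the granzyme gene GZMM. GZMM had 24.3 and 24.4 CPM in 6T-CEM sh-SH2D1A, against 5.56 and 6.63 CPM in 6T-CEM sh-NC, and was at -0.66 in Jurkat (adjusted p = 0.353). Its interaction of -2.65 ± 0.47 (adjusted p = 0.0208) left the threshold without any 1 of the 4 6T-CEM libraries or without Jurkat sh-NC replicate 1 (adjusted p = 0.0616 to 0.0973). PRF1, the pore former perforin, was at 0.09 in Jurkat and 0.78 in 6T-CEM, with an interaction of -0.69 (adjusted p = 0.123). SLAMF7, a SLAM receptor of effector cells, had 6.60 and 6.53 CPM in 6T-CEM sh-SH2D1A, against 1.16 and 0.889 CPM in 6T-CEM sh-NC, and stayed at or near the limit of 3 counts in Jurkat. Its interaction was not called (-3.44 ± 1.04, adjusted p = 0.154). In 6T-CEM at day 5 the log2 changes of GZMM and SLAMF7 were -0.11 and -0.23, while those of PRF1 and GZMH were 0.86 and 2.92.

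Interferon response genes were mixed. Of 50 tested, none rose and 7 fell in Jurkat, and 7 rose and 3 fell in 6T-CEM, with medians of -0.08 and 0.08, and the 4 interaction calls (8.0%) were all negative. GBP1, an interferon-induced GTPase, had 35.0 and 37.2 CPM in Jurkat sh-SH2D1A, against 38.2 and 40.2 CPM in Jurkat sh-NC. GBP1 had 36.4 and 31.8 CPM in 6T-CEM sh-SH2D1A, against 19.0 and 19.9 CPM in 6T-CEM sh-NC, changes of -0.12 in Jurkat and 0.81 in 6T-CEM and an interaction of -0.93 ± 0.13 (adjusted p = 0.00699). That call held under all 16 alternatives. LGALS3BP, a secreted scavenger receptor domain protein, was at 0.14 in Jurkat and 0.94 in 6T-CEM, and its interaction of -0.80 ± 0.13 (adjusted p = 0.0122) left the threshold without 6T-CEM sh-NC replicate 1 (adjusted p = 0.0767), 6T-CEM sh-NC replicate 2 (0.0576) or 6T-CEM sh-SH2D1A replicate 1 (0.0675). IRF1, the transcription factor, was at -0.35 in Jurkat and 0.23 in 6T-CEM, and its interaction of -0.58 ± 0.09 (adjusted p = 0.0107) left the threshold without 6T-CEM sh-NC replicate 1 (adjusted p = 0.0679), 6T-CEM sh-NC replicate 2 (0.0616) or 6T-CEM sh-SH2D1A replicate 2 (0.0616). ISG15 was at 0.15 in Jurkat and 0.36 in 6T-CEM (interaction adjusted p = 0.614), and MX2 at 0.56 and -0.16 (0.132).

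Among transcription factors of T-ALL and of T cell fate, MYB fell in 6T-CEM and TCF7 rose in Jurkat, each without a call in the other line. Of 42 tested, 3 rose and 3 fell in Jurkat and 3 rose and 9 fell in 6T-CEM, and the interaction was called for 9 (21.4%), 7 positive and 2 negative. MYB, a driver of immature T cell growth, had 622 and 643 CPM in Jurkat sh-SH2D1A, against 566 and 601 CPM in Jurkat sh-NC. MYB had 379.6 and 379.8 CPM in 6T-CEM sh-SH2D1A, against 587 and 596 CPM in 6T-CEM sh-NC, with an interaction of 0.76 ± 0.07 (adjusted p = 0.000424). TCF7, which sets up the T cell programme, was at 0.50 in Jurkat and -0.13 in 6T-CEM, with an interaction of 0.63 ± 0.07 (adjusted p = 0.00165). ID3, an inhibitor of E proteins, was at -0.30 in Jurkat and 0.61 in 6T-CEM, with an interaction of -0.92 ± 0.12 (adjusted p = 0.00502), and these 3 calls held under all 16 alternatives. GATA3, a T lineage factor, was at -0.12 in Jurkat and -0.66 in 6T-CEM, and its interaction of 0.55 ± 0.08 (adjusted p = 0.00789) left the threshold without 6T-CEM sh-NC replicate 1 (adjusted p = 0.057), 6T-CEM sh-NC replicate 2 (0.0529) or 6T-CEM sh-SH2D1A replicate 1 (0.054).

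MYC, the growth regulator, rose in Jurkat and was not called in 6T-CEM. It had 323 and 312 CPM in Jurkat sh-SH2D1A, against 194 and 187 CPM in Jurkat sh-NC. MYC had 314 and 316 CPM in 6T-CEM sh-SH2D1A, against 325 and 336 CPM in 6T-CEM sh-NC, a change that did not pass (adjusted p = 0.46), and an interaction of 0.81 ± 0.07 (adjusted p = 0.000303) that held under all 16 alternatives. Of 57 genes of ribosome assembly and nucleotide supply known as MYC targets, 14 rose and 2 fell in Jurkat and none rose and 2 fell in 6T-CEM, with medians of 0.19 and -0.03. The interaction was called for 3 of them (5.26%), all positive and each at most 0.46 on the log2 scale, and the 78 cytosolic ribosomal protein genes had none by edgeR. The microRNA host gene MIR17HG was at 1.18 in Jurkat and 0.12 in 6T-CEM, with an interaction of 1.06 ± 0.22 (adjusted p = 0.0434) that left the threshold without any 1 of the 8 libraries (adjusted p = 0.0636 to 0.181).

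Genes that changed in 1 line and stayed within 0.2 on the log2 scale in the other included the following 5. In Jurkat PDGFC, a growth factor of the PDGF family, had 67.8 and 65.2 CPM in Jurkat sh-SH2D1A, against 25.3 and 26.8 CPM in Jurkat sh-NC. PDGFC had 72.1 and 73.1 CPM in 6T-CEM sh-SH2D1A, against 64.5 and 62.2 CPM in 6T-CEM sh-NC, with an interaction of 1.16 ± 0.09 (adjusted p = 0.000229). NIBAN1, a stress response gene, had 2.85 and 1.94 CPM in Jurkat sh-SH2D1A, against 0.6 and 0.466 CPM in Jurkat sh-NC, and was at 0.12 in 6T-CEM, with an interaction of 2.04 ± 0.28 (adjusted p = 0.00558). In 6T-CEM TENT5C, a noncanonical poly(A) polymerase, had 49.1 and 51.7 CPM in 6T-CEM sh-SH2D1A, against 131 and 133 CPM in 6T-CEM sh-NC. TENT5C had 256 and 242 CPM in Jurkat sh-SH2D1A, against 239.9 and 264 CPM in Jurkat sh-NC, with overlap, and an interaction of 1.37 ± 0.09 (adjusted p = 0.000128). CR2, the complement receptor CD21, was at 0.14 in Jurkat and -1.80 in 6T-CEM, with an interaction of 1.94 ± 0.26 (adjusted p = 0.00575) and 6T-CEM levels of 0.407 and 0.547 CPM with sh-SH2D1A and 1.603 and 1.75 CPM with sh-NC. THEMIS, which sets thymocyte receptor signalling, was at -0.08 in Jurkat and 0.97 in 6T-CEM, with an interaction of -1.05 ± 0.14 (adjusted p = 0.00502). All 5 calls held under all 16 alternatives, and TENT5C is the gene that was also called in the earlier libraries.

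Among the 35 genes that changed the same way by unequal amounts, 27 changed more in 6T-CEM and 8 more in Jurkat, and 28 fell in both lines, 25 of them further in 6T-CEM, while SH2D1A fell further in Jurkat. ALDH1A2, the enzyme that makes retinoic acid, had 677 and 694 CPM in Jurkat sh-SH2D1A, against 843 and 868 CPM in Jurkat sh-NC. ALDH1A2 had 84.5 and 82.5 CPM in 6T-CEM sh-SH2D1A, against 213 and 226 CPM in 6T-CEM sh-NC, with an interaction of 1.07 ± 0.07 (adjusted p = 0.000128). ANXA1, an annexin of inflammation control, had 34.9 and 34.0 CPM in Jurkat sh-SH2D1A, against 90.3 and 97.5 CPM in Jurkat sh-NC. ANXA1 had 1.41 and 1.49 CPM in 6T-CEM sh-SH2D1A, against 9.72 and 10.2 CPM in 6T-CEM sh-NC, with an interaction of 1.33 ± 0.15 (adjusted p = 0.00181). IGLL1, a part of the surrogate light chain, was at -0.49 in Jurkat and -1.86 in 6T-CEM, ADCYAP1, a neuropeptide gene, at -1.15 in Jurkat and -2.66 in 6T-CEM, and the protease gene ADAMTS1 at -0.47 in Jurkat and -1.47 in 6T-CEM. These 5 calls held under all 16 alternatives. The rises were larger in Jurkat for 5 of 7, among them VCAN, a matrix proteoglycan, at 2.94 in Jurkat and 1.35 in 6T-CEM. Its interaction of 1.58 ± 0.26 (adjusted p = 0.0154) left the threshold without 6T-CEM sh-NC replicate 1 (adjusted p = 0.0626), 6T-CEM sh-NC replicate 2 (0.0614), 6T-CEM sh-SH2D1A replicate 1 (0.0723) or Jurkat sh-NC replicate 1 (0.0812), and with no filter on low counts (0.0675). With the 6T-CEM changes multiplied by 1.59, the difference of VCAN was 0.78 (adjusted p = 0.278). RAG1, the recombinase, rose in both lines, at 2.11 in Jurkat and 1.35 in 6T-CEM, and its interaction of 0.76 ± 0.14 (adjusted p = 0.0277) left the threshold in 6 of the 8 fits without 1 library (adjusted p = 0.0629 to 0.127), those without Jurkat sh-NC replicate 2 and Jurkat sh-SH2D1A replicate 1 being the exceptions. It turned to -0.038 with the 6T-CEM changes multiplied by 1.59.

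In the remaining lists, T cell receptor signalling had 18 of 35 members that fell in Jurkat and 12 in 6T-CEM, with 1 and 3 that rose, medians of -0.31 and -0.15, and 6 interaction calls (17.1%), of which 5 were negative. Sterol and fatty acid synthesis genes fell in 21 of 39 in Jurkat and 9 in 6T-CEM, where 2 rose, with medians of -0.37 and -0.08 and 7 interaction calls (17.9%), 5 negative. Glycolysis and hypoxia genes fell in 25 of 39 in Jurkat and 14 in 6T-CEM, with medians of -0.29 and -0.23 and 3 negative interaction calls (7.69%). SLAM receptors and partners had 2 interaction calls among 15 (13.3%), both negative. The 2 were LY9 and SH2D1A, the hairpin's own target. G2/M genes (52 tested) and nuclear respiratory chain genes (52 tested) had no interaction call by edgeR, and S phase genes (52 tested) had 1. Over all genes 2979 had an unadjusted p under 0.05 for the interaction.

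**Figure D5:**
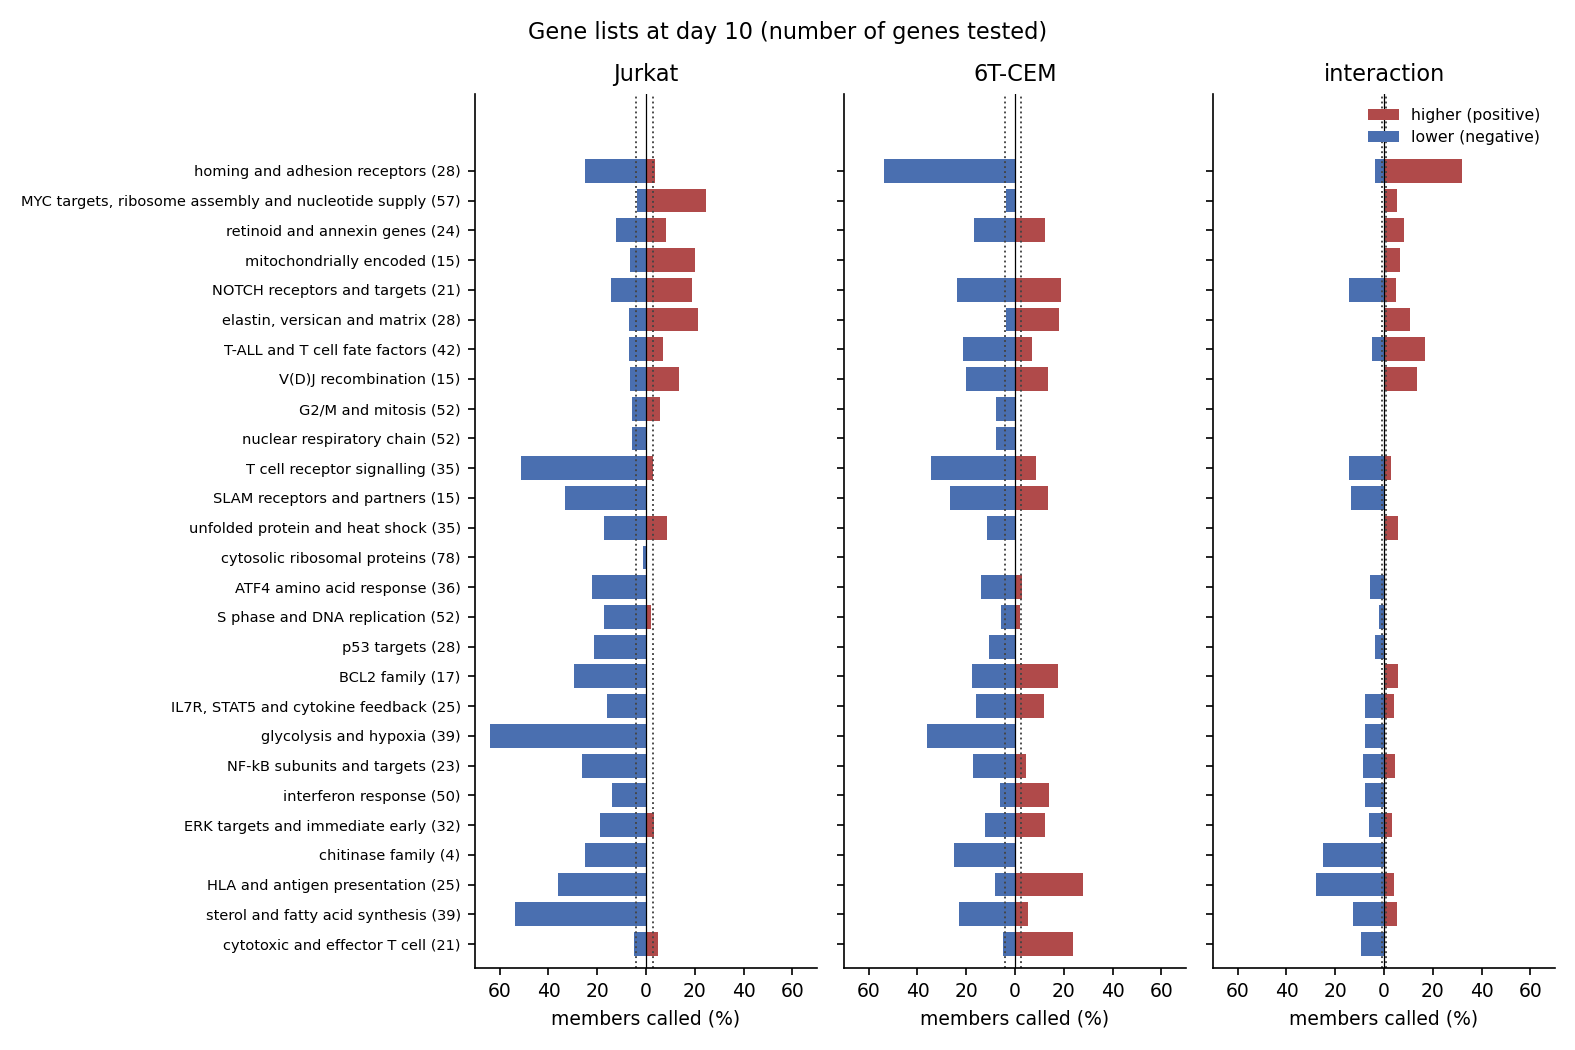
Share of the tested members of 27 gene lists called at day 10, in percent, for the change in Jurkat, the change in 6T-CEM and the interaction, with higher or positive to the right in red and lower or negative to the left in blue. Dotted lines mark the shares over all 20770 genes; HLA and antigen presentation genes lie to the left in Jurkat and to the right in 6T-CEM, and homing and adhesion receptors have the longest bar of positive interactions.

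Some genes were expressed in 1 line only at a level that allows a comparison. In Jurkat 9 genes were called that stayed under 1 CPM in every 6T-CEM library, 2 higher and 7 lower, and none had an interaction call by edgeR. In 6T-CEM 20 such genes were called, 14 higher and 6 lower, with 1 interaction call. SAMD3 had 3.41 and 3.65 CPM in 6T-CEM sh-SH2D1A, against 0.512 and 0.317 CPM in 6T-CEM sh-NC, and 0 counts in Jurkat. CA9, a hypoxia-induced carbonic anhydrase, had 0.375 and 0.364 CPM in 6T-CEM sh-SH2D1A, against 2.01 and 2.35 CPM in 6T-CEM sh-NC. Beyond that 1 call, a difference between the lines was not detectable for these genes at this depth.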

How the data were processed

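Total RNA was extracted with TRIzol and made into TruSeq libraries, per the labels' protocols. HISAT2 2.2.0, StringTie and the hg38 build are named in the submitters' processing notes. The authors deposited 1 table per line and day with whole-number counts per Ensembl gene, not normalised, over 64252 identifiers. A symbol was found for 40995, and GENCODE 29 lists 56591. Nothing in the sources used here names the annotation release, the strand setting or the counting step. Should the counts come from StringTie, they would be coverage-based estimates. Identifiers without a symbol held 2.86 to 3.25% of the counts of a day 10 library.

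The 2 day 10 tables were joined by identifier. edgeR 4.0.16 under R 4.3.3 fitted the counts (low genes dropped by filterByExpr at 10 counts, TMM, glmQLFit, 4 group means, two-sided quasi-likelihood F-test, 4 residual degrees of freedom, Benjamini-Hochberg adjustment). SE is the absolute log2 change over the square root of F. CPM are scaled by TMM. The earlier 8 libraries were fitted alike. The script was tested on simulated counts. The 16 alternatives used DESeq2 1.42.0, other filters, 16 libraries, a replicate block, each library left out and a scaled 6T-CEM change. A 2-fold limit was counted apart and is not among the 16, so a call said to hold under all of them can be under 2-fold. The limit of 3 counts covers counting error only.

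The genes, lists and tests were chosen with earlier results of these data known. Named were SH2D1A, CHI3L2, the 12 largest opposite genes per direction, the 5 largest same-direction genes per sign, the 5 largest 1-line rises and falls, 3 per direction low in the other line, up to 4 per list and read-through genes; a smaller set is printed with values, and some named genes are not reported here. Replicate numbers were not used as pairs: deviations of equal numbers correlated across genes at 0.021 in Jurkat and 0.005 in 6T-CEM.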

Additional observations from a re-analysis of the deposited data

Results flagged for a closer look

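The test of the difference between the Jurkat and the 6T-CEM change passed for 358 genes, and the opposite genes below were picked out because both lines changed and in opposite directions. Lower in Jurkat and higher in 6T-CEM, with the Jurkat minus 6T-CEM log2 difference, were CDHR1 (-2.05), HLA-B (-1.87), HLA-F (-1.77), NLRC5 (-1.58), LY9 (-1.36), CD28 (-1.17), HLA-C (-1.001), B2M (-0.95), CHRNA3 (-0.88), RIMS3 (-0.70) and UCP2 (-0.68). Higher in Jurkat and lower in 6T-CEM were NTRK3 (2.02), MME (1.90), S1PR1 (1.81), RFX8 (1.66), HDAC9 (1.66), LINC02910 (1.21), SHANK1 (1.01), PPM1H (0.90), CEP70 (0.84), PPM1E (0.81), FYB1 (0.77) and CDH4 (0.63). In 6T-CEM none of HLA-B, HLA-C, HLA-F, B2M and NLRC5 was called higher at day 5 by edgeR, and HLA-B was called lower there.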

How the results depend on the processing

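Of 116 named genes 105 had an interaction call, and 39 of these kept it under every one of the 16 alternatives that tested them; some genes of low level are not tested under each. All 42 opposite genes kept opposite signs under each alternative fit that gives a change per line, which the scaled fit does not. These fits reuse the libraries that chose the 42, so their signs could hardly change and nothing is read from this count. The DESeq2 Wald test called 706 interactions (361 positive, 345 negative), 67 opposite genes (38 lower in Jurkat) and 61 unequal changes in the same direction. With no filter on low counts there were 114 interactions (75 and 39), 689 Jurkat and 868 6T-CEM calls, 23 opposite genes (8 higher in Jurkat) and 12 unequal ones. With all 16 libraries in the fit there were 179 (114 and 65), 803 and 916 calls, 20 opposite genes (6 higher and 14 lower in Jurkat) and 19 unequal ones. At a difference of at least 2-fold there were 116 (66 and 50), 25 opposite genes (10 higher in Jurkat) and 9 unequal ones. With no filter, edgeR's quasi-likelihood test also lost the interaction of SH2D1A (adjusted p = 0.103), CHRNA3 (0.051), ITGAL (0.0566), KLF2 (0.066) and RAG1 (0.121). The same fit lost that of GZMM (0.103), LGALS3BP (0.057), MIR17HG (0.129), KHDRBS3 (0.051) and ABCB10 (0.0649). The cause of these differences was not tested.

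Leaving out 1 library gave 106 to 549 interactions, 60 to 288 positive and 39 to 261 negative, 711 to 1265 Jurkat calls, 575 to 1841 6T-CEM calls, 19 to 53 opposite genes (8 to 21 higher and 11 to 34 lower in Jurkat) and 8 to 45 unequal ones. The lone sample left in a group was assumed to vary like the others. The replicate block within each line gave 496 interactions, 342 of them among the 358. Equal numbers did not deviate together, so the samples share only a number, and no pairing was used.

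Values that changed sign were CHI3L2 (0.148), RAG1 (-0.0376), GOLGA8S (1.32) and BCL3 (0.919) with the 6T-CEM change scaled. GOLGA8S, BCL3 and their like are under 1 CPM in 6T-CEM: leaving out 1 library gave -1.169 to 1.872 for GOLGA8S and -0.435 to 0.4668 for BCL3. Depth limits such genes to the level that 3 counts allow.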
